A study of Mus musculus with 15 samples.

Results

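The Usp17l deubiquitinase family is described here across 6 pools of mouse 2-cell embryos. Its members are the 5 genes named Usp17la, Usp17lb, Usp17lc, Usp17ld and Usp17le among the 53023 genes of the deposited FPKM table, and they were chosen by name. All 5 had a mean of at least 1 FPKM and entered the tests. Each pool held 5 embryos of the ICR strain, made by in vitro fertilization and collected 32 hours after insemination. In the injected groups, mRNA coding for HA-tagged actin with a nuclear localisation signal (NLS) was put in 2 hours after insemination. The question was what disrupting nuclear actin filaments does to the embryo, with the non-polymerising mutant R62D set against wild-type actin and against embryos that received no mRNA. The libraries form 3 pairs, whose titles contradict the annotation of the injected mRNA. The titles call pair A Wt, pair B R62D and pair C Non-injected control. The annotation gives Non-injected for A, actinWT-HA-NLS for B and actinR62D-HA-NLS for C. The name of a library, such as B2, joins its pair with the number in its title, and each comparison is given with both readings. A further 9 samples (Exp6+R62D, G15S and Non) were not analysed here.

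Deubiquitinating enzymes remove the small protein ubiquitin from other proteins and so can change their stability, place or activity. The Usp17l genes encode cysteine proteases of the ubiquitin-specific protease class. In mouse the first members, also called Dub genes, were described as early response genes that cytokines switch on in blood cells, and human DUB3 (USP17) is known to stabilise the cell cycle phosphatase CDC25A. Usp17l transcripts are also among those listed for the 2-cell stage, when the mouse embryo starts to transcribe its own genome.

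All members lie on chromosome 7 (mm10, positions of the table). Usp17ld (ENSMUSG00000057321.2) spans 103249737 to 103252505 (minus) and Usp17lc (ENSMUSG00000058976.4) 103415072 to 103419880 (plus). Usp17le (ENSMUSG00000043073.10) spans 104768049 to 104777470 (minus), Usp17lb (ENSMUSG00000062369.2) 104840257 to 104842603 (minus) and Usp17la (ENSMUSG00000054568.7) 104857009 to 104862667 (plus). RefSeq lists Dub1 as a synonym of Usp17la, Dub1a of Usp17lb, Dub2 of Usp17lc, Dub2a of Usp17ld and Dub3 of Usp17le. The family thus falls into a group of 2 genes and a group of 3 genes, 1.35 Mb apart, within a span of 1613 kb. This span holds 118 other genes, of which 74 are olfactory receptor genes (Olfr). Not 1 of these receptors reached a mean of 1 FPKM (highest mean 0.81 FPKM), and 5 of the 118 genes did, against 13443 of all 53023 genes. The highest of the 118 was the processed pseudogene Gm16464 at a mean of 3.82 FPKM, below each of the 5 members. Reads shared with Usp17lb can enter the values of the other 4 members, and their part was not tested. The only gene overlapping a member was Gm25774, a miRNA gene in an intron of Usp17lc, listed at 0 in all libraries.

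The promoters of 4 members are in the RefSeq table (GRCm38.p6), and their proximal parts are shown because the genes are near copies up to the place where transcription starts. Each line gives 120 bases, 5′ to 3′, ending just past the TATA position, and lies wholly before the RefSeq start of the gene. Capitals mark, in this order, the CACCC box, the CCAAT box read on the other strand (ATTGG) and the 7 bases at the TATA position.
Usp17lb, chr7:104842606-104842725, minus strand: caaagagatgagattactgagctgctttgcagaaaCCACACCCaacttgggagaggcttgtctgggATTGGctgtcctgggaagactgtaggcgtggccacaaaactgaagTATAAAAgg
Usp17la, chr7:104856859-104856978, plus strand: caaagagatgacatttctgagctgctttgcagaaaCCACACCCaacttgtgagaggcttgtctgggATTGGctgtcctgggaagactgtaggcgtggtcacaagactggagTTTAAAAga
Usp17lc, chr7:103416497-103416616, plus strand: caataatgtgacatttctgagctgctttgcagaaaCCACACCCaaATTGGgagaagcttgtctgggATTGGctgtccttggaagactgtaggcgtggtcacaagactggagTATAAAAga
Usp17ld, chr7:103252607-103252726, minus strand: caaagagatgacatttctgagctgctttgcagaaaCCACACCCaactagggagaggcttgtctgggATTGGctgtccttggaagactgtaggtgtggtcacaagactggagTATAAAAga
Usp17le was not in this table. In Usp17lc a further ATTGG is in capitals before the shared one, and its window lies in an intron of the longer GENCODE transcript. Aligned pairs of promoters were identical at 92.1% to 97.3% of aligned bases. The motifs were chosen after these sequences were seen and searched on both strands of the 250 bases before the start. TATAAA was present in Usp17lb, Usp17lc and Usp17ld and not in Usp17la, which has TTTAAAA at that place, and 12.4% of all 32851 promoters of the table hold it. The TATA position began at -31 from the RefSeq start in Usp17lb, at -46 in Usp17la, at -88 in Usp17lc and at -110 in Usp17ld. CCACACCC was present in all 4 promoters and in 3.20% of the table. The RUNX motif AACCACA, which overlaps CCACACCC here, was also in all 4 and in 4.40% of the table, and CCAAT was in all 4 and in 33.9%. The Dux motif, of a transcription factor of the 2-cell stage, had 0 matches in the 4 promoters and is in 0.030% of the table. The motif of the Obox homeobox proteins, GGATTA, also had 0 matches and is in 6.25%.

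The coding sequences differ enough to tell Usp17lb from the others, which matters because it dominates the values below. In GENCODE M21 the coding part has 526 codons in Usp17la, 468 in Usp17lb, 545 in Usp17lc and in Usp17ld, and 542 in the longest model of Usp17le. Usp17lb was 90.6% to 91.3% identical to each of the other 4. Usp17lc and Usp17ld, neighbours at 162.6 kb, were 98.4% identical, and the remaining pairs were 93.1% to 94.4% identical. Of 1404 coding bases of Usp17lb aligned in all 5 genes, 86.0% were the same in all and 78 (5.56%) were found in Usp17lb alone. The 60 coding bases with the most such positions, 13 of 60, are near the end of the Usp17lb coding sequence (bases 1335 to 1394), and capitals mark these positions.
Usp17lb: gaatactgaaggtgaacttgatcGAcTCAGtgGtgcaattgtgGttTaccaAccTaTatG
Usp17la: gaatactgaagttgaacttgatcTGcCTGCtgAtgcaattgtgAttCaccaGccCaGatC
Usp17lc: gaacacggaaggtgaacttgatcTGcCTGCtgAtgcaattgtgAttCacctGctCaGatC
Usp17ld: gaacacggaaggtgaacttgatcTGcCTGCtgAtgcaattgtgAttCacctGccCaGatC
Usp17le: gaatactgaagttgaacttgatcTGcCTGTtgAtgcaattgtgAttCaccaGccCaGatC
Each line is from 1 GENCODE transcript model, and Usp17lb differs from all 4 others at each capital.

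The sequencing reads had 50 and 25 bases, so the share of each gene that no other annotated gene repeats was counted. Of all distinct 50-base words in the transcripts of Usp17lb, 78.6% occurred in no other gene of GENCODE M21. That share was 79.9% for Usp17la and 70.2% for Usp17le. It was 55.3% for Usp17lc and 48.9% for Usp17ld, which have 41.5% and 50.4% of their words in common with each other. With 25-base words the shares were 63.6% for Usp17lb, 51.8% for Usp17la, 43.3% for Usp17le, 32.6% for Usp17lc and 27.8% for Usp17ld. A related locus outside the family, Gm5053 (chromosome 7, 108527397 to 108529074, annotated as a processed pseudogene), repeats 172 of the 1538 words of 50 bases in Usp17lb. The reads recovered from the FPKM values were fractions for 29 of the 30 values of members (5 genes in 6 libraries), so reads shared with other places entered almost every value. Single members are therefore uncertain, and a read of Usp17lb from a shared stretch also adds to the others.

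**Figure D1:**
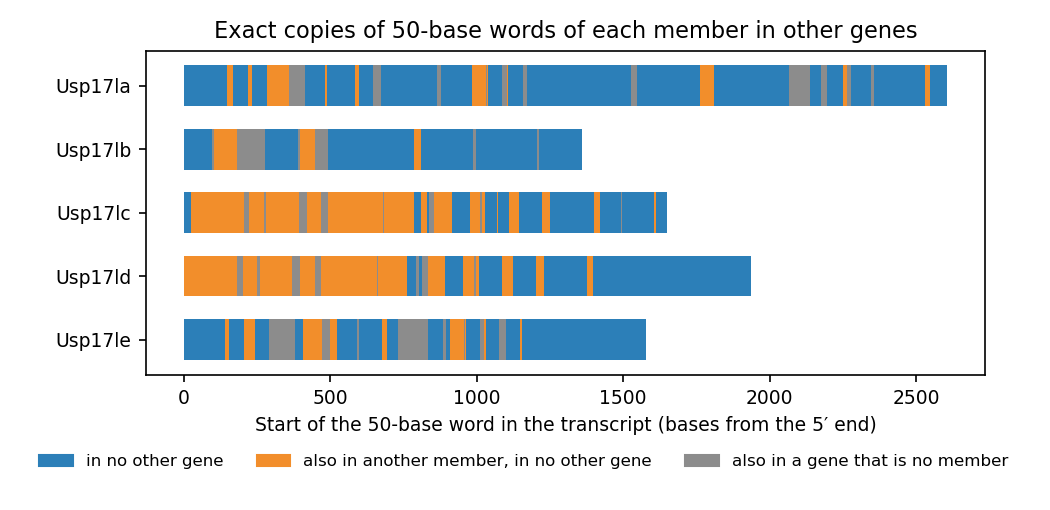
Each bar is 1 transcript model of a member, and colour shows at each start position (bases from the 5′ end, x axis) whether the 50-base word is found in no other gene, also in another member, or also in a gene that is no member. Counted over all transcripts of a gene and not only the one drawn, words found in no other gene make up 78.6% of the distinct words of Usp17lb and 48.9% of those of Usp17ld.

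The libraries held 907210 to 1555431 assigned reads. On principal component 1, which held 28.7% of the variance, A2 (score 49.3) and C2 (score 49.7) stood apart from the other 4 (-32.7 to -11.1). Fewer genes reached 1 FPKM in A2 and C2 (12485 and 12279) than in the rest (13239 to 13845), and mitochondrial reads took more (13.1% and 10.9%, against 7.23% to 10.6%). On 9 Y-linked genes, 107 to 311.2 reads were found in 5 libraries and 0 in B2, which allows up to 3. Of 9 genes fixed as markers of the 2-cell embryo or its oocyte store, 8 had a mean of at least 1 FPKM, with 1904 to 4033 FPKM in sum. Of 7 markers of later embryos Cdx2 and Sox17 were at 0 in all libraries, and the sum of the 7 was 1.57 to 10.3 FPKM. Of 14 blood cell markers, the cells in which the Dub genes were first described, 5 were at 0 in all libraries, among them Cd3e and Il3ra. The summed level of these 14 was 83.2 and 14.8 FPKM in pair A, 78.5 and 43.3 FPKM in pair B, and 33.9 and 10.4 FPKM in pair C, led by the globin gene Hba-a1. The cumulus markers, with 7 of 13 at 0, summed to 0.44 and 0.52 FPKM in A, 2.84 and 4.58 FPKM in B, and 3.29 and 1.88 FPKM in C. The sperm markers summed to 31.4 to 52.1 FPKM, led by Ldhc (mean 36.0 FPKM), with 4 of 10 at 0 and 2 at a mean of at least 1 FPKM. The part of other cells in the results below was not tested.

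Usp17lb was by far the most abundant member in every library. It measured 461.4 and 352.7 FPKM in pair A, 480 and 793.9 FPKM in pair B, and 504.9 and 389.4 FPKM in pair C. These levels rested on 551.4 to 1480.5 reads. A2 and C2 were the lowest libraries and B2 was the highest, and the other 3 lay within 461.4 to 504.9 FPKM. Among protein-coding genes Usp17lb ranked 44th in B2 and between 88th and 130th in the other libraries. Its mean of 497.1 FPKM lay above 98.9% of the 13443 genes tested.

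The other 4 members had values at the level of a middling gene. Each of them repeats 8.84% to 11.5% of the 50-base words of Usp17lb. How much of their values comes from reads of Usp17lb was not tested. Usp17le, named Dub3 in RefSeq, measured 11.96 and 4.85 FPKM in pair A, 8.57 and 13.2 FPKM in pair B, and 10.1 and 4.70 FPKM in pair C. Usp17ld measured 9.35 and 5.68 FPKM, 6.16 and 13.0 FPKM, and 9.87 and 3.54 FPKM in the same order. For Usp17lc, its near copy, the values were 9.07 and 3.69 FPKM, 7.02 and 14.5 FPKM, and 7.97 and 4.44 FPKM. In all of these genes A2 and C2 were again the lowest and B2 the highest. Usp17la, the gene next to Usp17lb, measured 8.41 and 2.69 FPKM in A, 4.43 and 14.4 FPKM in B, and 5.74 and 1.91 FPKM in C. These 4 genes had between 4.6 reads (Usp17la in C2) and 45.7 reads (Usp17la in B2), and their means lay above 52.8% to 61.2% of tested genes.

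Between Usp17lb and the rest there was no overlap, as Usp17lb was 38.6 to 82.8 times the highest of the other 4 in the same library. It made up 92.2% to 96.4% of the summed FPKM of the family. The order of the 4 lower members by mean was Usp17le (8.91 FPKM), Usp17ld (7.94), Usp17lc (7.79) and Usp17la (6.26). The 95% Poisson intervals of every pair among the 4 overlapped in all 6 libraries. With so few reads, such overlap does not show that the levels are equal, and the order was not tested. In FPKM, Usp17la was below Usp17lc in 6 of 6 libraries and below Usp17ld and Usp17le in 5 of 6. Its reads were above those of Usp17lc in A1 (22.33 against 22.25) and B2 (45.68 against 42.62). These are divided by a greater gene length (2656 against 2453 bases). Since members share reads and lengths are fixed, the libraries are not separate evidence of an order. In B2 the order changed, with Usp17lc and Usp17la highest and all 4 within 13.0 to 14.5 FPKM.

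**Figure D2:**
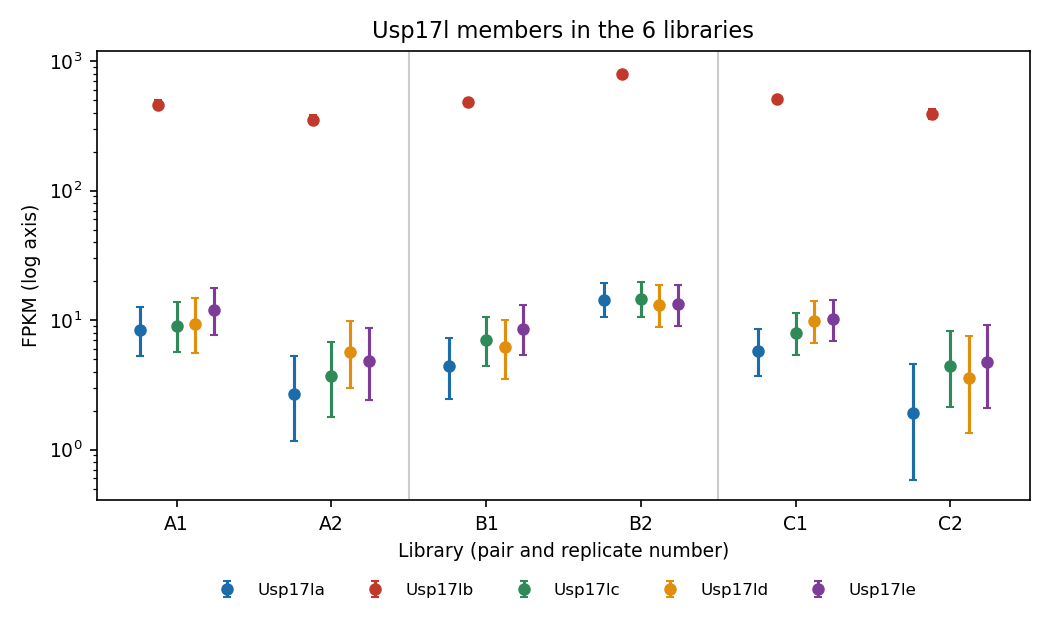
FPKM (log axis) of each member in the 6 libraries, with 95% Poisson intervals of the recovered reads. These intervals cover counting error only and are approximate for fractions of reads. Usp17lb lies between 352.7 and 793.9 FPKM and the other 4 between 1.91 and 14.5 FPKM.

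Summed over the 5 genes, the family measured 500.2 and 369.6 FPKM in A, 506.2 and 849.1 FPKM in B, and 538.7 and 404 FPKM in C. The members moved together from library to library. Every member was higher in A1 than A2, in B2 than B1 and in C1 than C2, with B2 the highest of all 6, a pattern that 6.89% of the 13443 tested genes showed. A2 and C2 lay below the other 4 libraries for every member, as for 15% of tested genes. Since the members share reads, these 5 genes are not 5 separate observations.

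Within a pair, the libraries of Usp17lb differed by 1.31 times in A, 1.65 times in B and 1.30 times in C. For Usp17la the same ratios were 3.12, 3.25 and 3.01. The other 3 members had ratios between 1.54 (Usp17le in B) and 2.79 (Usp17ld in C). The coefficient of variation of Usp17lb over the 6 libraries was 31.4%, where Poisson counting error of the recovered reads would give about 3.45%. For Usp17la it was 73.6% against 27.4%, and for the other 3 it was 40.0% to 50.0% against 23.2% to 25.4%. Both values describe these libraries only. The Poisson figures are approximate, because almost every value holds fractions of shared reads. The mitochondrial share was highest in A2 and C2, and B2 alone had no Y-linked reads. The part of either in these values was not tested. In pooled embryos, fewer cells with a transcript and less transcript per cell cannot be told apart.

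Correlations of log2(FPKM + 1) over the 6 libraries, given as a description, were highest between Usp17la and Usp17lc (r = 0.965) and lowest between Usp17lb and Usp17ld (r = 0.807). The points share the libraries, and the genes share reads. Expressed as a percentage of Usp17lb, the sum of the other 4 was 8.41% and 4.80% in pair A, 5.45% and 6.95% in pair B, and 6.68% and 3.75% in pair C. This percentage varied between libraries and was lowest in C2 and A2. It rested on 29.3 to 150.6 reads of the other 4 in sum, and the part of reads shared with Usp17lb was not tested. The related pseudogene Gm5053 measured 6.28 and 4.06 FPKM in A, 4.84 and 9.94 FPKM in B, and 5.37 and 3.28 FPKM in C, also with B2 highest. The pseudogene Usp17le-ps, which carries the family name but is no member, lay at 0.27 to 1.34 FPKM on at most 2 reads.

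B against A sets wild-type actin against no injection if the annotation holds, and R62D against wild-type actin if the titles hold. The family sum averaged 677.6 ± 242.5 FPKM (SD, n = 2) over B and 434.9 ± 92.3 FPKM over A. Usp17lb was at 480 and 793.9 FPKM in B and at 461.4 and 352.7 FPKM in A, so both libraries of B lay above both of A. Among tested genes 18.8% were higher in B without overlap, and Usp17lb was the only one of the 5 members (1 of 5). Its log2 fold change was 0.61 ± 0.34 (SE), with a 95% interval of -0.18 to 1.40 and an adjusted p of 0.991 (limma). The other members had log2 fold changes of 0.63 ± 0.71 (Usp17la), 0.70 ± 0.54 (Usp17lc), 0.27 ± 0.56 (Usp17ld) and 0.42 ± 0.53 (Usp17le), each with an adjusted p of 0.991 or 0.993. All 5 coefficients were above 0, as were 55.1% of all tested genes, with a median of 0.61 against 0.07 over all genes. Over all genes 0 of 13443 passed (0%), 4.57% had an unadjusted p below 0.05 (2.77% higher and 1.79% lower in B), and 0 of the 5 members did. Without B2 the log2 fold change of Usp17lb was 0.25, and without A2 and C2 it was 0.42 while Usp17la, Usp17ld and Usp17le lay below 0 (-0.04, -0.05 and -0.15).

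C against A sets R62D against no injection if the annotation holds, and no injection against wild-type actin if the titles hold. Here the values of the family lay closest. The family sum averaged 471.3 ± 95.3 FPKM (SD, n = 2) over C and 434.9 ± 92.3 FPKM over A. For Usp17lb the libraries interleaved, with 504.9 and 389.4 FPKM in C and 461.4 and 352.7 FPKM in A, and the log2 fold change was 0.14 ± 0.34 (SE, 95% interval -0.66 to 0.93). Usp17la had -0.41 ± 0.71, Usp17lc 0.02 ± 0.54, Usp17ld -0.24 ± 0.56 and Usp17le -0.13 ± 0.53. The adjusted p was 1 for each of the 5 (limma). With 2 of 5 coefficients above 0 the median was -0.13, against 0.06 over all tested genes, of which 56.5% were above 0. Of the 13443 genes 0 passed (0%), 3.01% had an unadjusted p below 0.05 (1.67% higher and 1.34% lower in C), and 0 of the 5 members did. The 95% intervals were -2.08 to 1.25 for Usp17la, -1.24 to 1.29 for Usp17lc, -1.55 to 1.06 for Usp17ld and -1.37 to 1.12 for Usp17le.

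C against B sets R62D against wild-type actin if the annotation holds, and no injection against R62D if the titles hold. All 5 members had coefficients below 0, and none passed the test. The family sum averaged 471.3 ± 95.3 FPKM (SD, n = 2) over C and 677.6 ± 242.5 FPKM over B. Usp17lb had a log2 fold change of -0.48 ± 0.34 (SE, 95% interval -1.27 to 0.31, adjusted p = 1, limma). The pairs overlapped, because C1 at 504.9 FPKM lay above B1 at 480 FPKM. Usp17la had -1.05 ± 0.71, Usp17lc -0.68 ± 0.54, Usp17ld -0.51 ± 0.56 and Usp17le -0.55 ± 0.53, with an adjusted p of 1 each (limma). The median of the members was -0.55 against 0 over all tested genes, of which 49.9% had coefficients above 0. Over all genes 0 of 13443 passed (0%) and 3.85% had an unadjusted p below 0.05 (1.64% higher and 2.22% lower in C), while 0 of the 5 members did. The pairs overlapped for all 5 members, where 14.8% of tested genes were lower in C without overlap. Without B2 the log2 fold changes were -0.29 (Usp17la), -0.11 (Usp17lb), -0.20 (Usp17lc), -0.03 (Usp17ld) and -0.26 (Usp17le), and without C2 that of Usp17ld was 0.12 and that of Usp17le -0.06. Pair C against B shares its libraries with the other comparisons, so the 3 sets of values are not separate evidence.

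**Figure D3:**
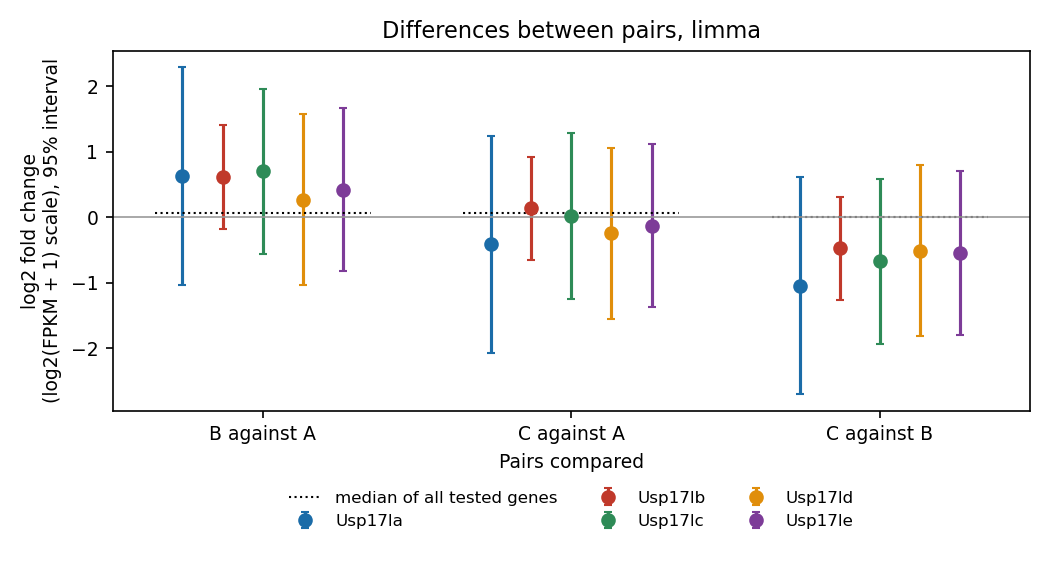
Log2 fold change of each member in the 3 comparisons (limma, log2(FPKM + 1) scale, bars are 95% intervals), with the median of all tested genes as a dotted line. All 15 intervals contain 0.

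Among the listed deubiquitinases, Usp17lb had the highest mean FPKM in these embryos. Of 76 other deubiquitinase genes of the list that are in the table, 0 had a higher mean than Usp17lb, and their median was 5.86 FPKM. The next was Eif3h, a translation initiation subunit with the fold of a deubiquitinase, at 123.4 to 236.1 FPKM over the 6 libraries. It was followed by Otud6b (117.8 to 180.4 FPKM) and by Psmd14, which removes ubiquitin at the lid of the proteasome (71.4 to 153.8 FPKM). Usp1, an enzyme of the DNA damage response, had a mean of 91.2 FPKM, and Usp16, which acts on ubiquitin of histone H2A, 84.7 FPKM. In every library the level of Usp17lb per length was above that of each of these genes. In reads, Usp16 lay above Usp17lb in A1, A2, B1 and C2 and below it in B2 and C1. The 4 lower members were in the middle of the list, where 28 of the 76 genes had a higher mean than Usp17le.

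**Figure D4:**
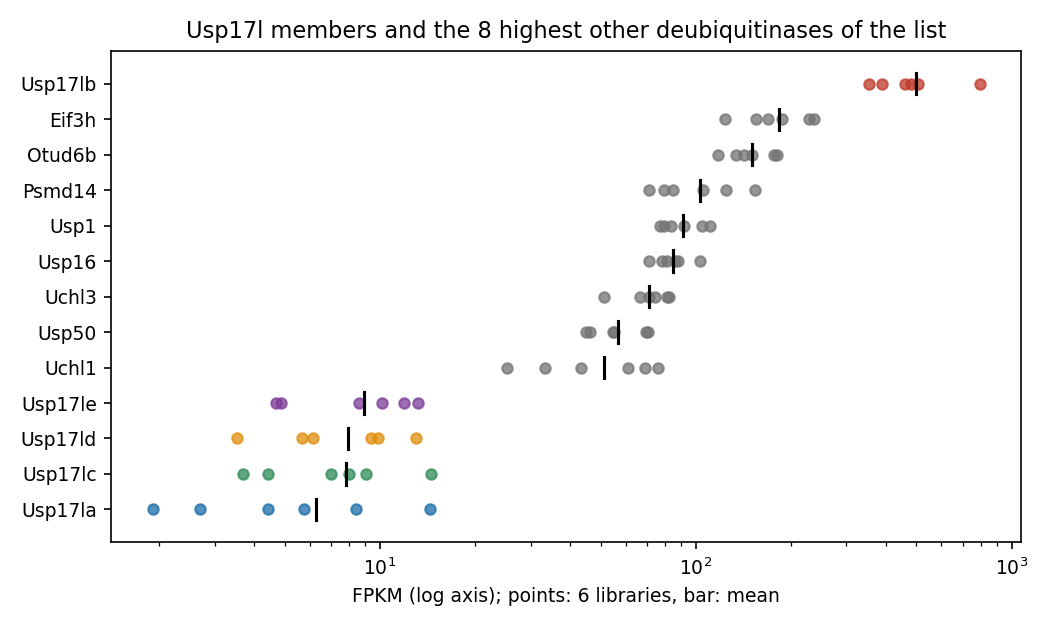
FPKM (log axis) of the 5 Usp17l members and of the 8 other deubiquitinase genes of the list with the highest means. Each library has 1 point, and a bar marks the mean. The points of Usp17lb (352.7 to 793.9 FPKM) lie above those of all other genes shown.

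Of the other deubiquitinases 62 were tested, and 0 passed in each comparison (limma). In B against A, 34 coefficients (54.8%) were above 0, against 55.1% of all tested genes. The median was 0.03 against 0.07 over all genes, and 1 gene was higher at an unadjusted p below 0.05 (background 2.77%). That gene was Usp26, an X-linked protease known from testis, at 2.90 and 0.87 FPKM in A, 10.1 and 9.32 FPKM in B, and 1.71 and 2.67 FPKM in C. Both libraries of B lay above the other 4, and the log2 fold change in B against A was 1.99 ± 0.48 (SE, adjusted p = 0.875, limma). These values rested on 4 to 53 reads, and Usp26 is also on the list of 2-cell-stage genes used below. Usp9x, a large X-linked deubiquitinase, measured 14.8 and 12.6 FPKM in A, 22.8 and 23.4 FPKM in B, and 19.01 and 15.9 FPKM in C. Its log2 fold change in B against A was 0.72 ± 0.31 (SE, adjusted p = 0.991, limma). In C against A, 39 coefficients (62.9%) were above 0, against 56.5% of all tested genes, with a median of 0.06 against 0.06. In C against B, 36 (58.1%) were above 0, against 49.9%, with a median of 0.05 against 0, and 1 gene (1.61%) was lower at an unadjusted p below 0.05 (background 2.22%).

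Genes whose proteins are reported substrates of USP17 or DUB3 were examined next, with 11 of 16 in the table tested and 0 passing in any comparison (limma). Cdc25a, the phosphatase that drives entry into the cell cycle phases, lay at 1.12 to 2.46 FPKM in all libraries. Gmnn, geminin, an inhibitor of replication licensing, was abundant at 771.9 to 1234 FPKM, and Ccna2, cyclin A2, measured 94.3 to 198.6 FPKM. In B against A, 9 of 11 coefficients (81.8%) were above 0, against 55.1% of all tested genes, with a median of 0.23 against 0.07. There 2 of 11 (18.2%) were higher at an unadjusted p below 0.05 (background 2.77%), Hdac2 and Rce1. In C against A, 8 of 11 were above 0 (background 56.5%), with a median of 0.24, and in C against B 5 of 11 (background 49.9%), with a median of -0.09. Hdac2, a histone deacetylase, measured 10.7 and 16.8 FPKM in A, 23.5 and 31.2 FPKM in B, and 23.0 and 13.8 FPKM in C. Both B libraries were above both A libraries (background 18.8%), with a log2 fold change of 0.96 ± 0.40 (SE, adjusted p = 0.991, limma). Rce1, a protease that trims proteins carrying a lipid anchor, had a log2 fold change of 1.28 ± 0.53 (SE, adjusted p = 0.991, limma) on at most 5 reads in any library. Of the ubiquitin genes, Ubb measured 1077 to 1725 FPKM, and in no comparison did any of the 5 genes of this list reach an unadjusted p below 0.05.

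The family was set beside the programme of the 2-cell stage, a list compiled with earlier results of these data known, so its direction is not independent evidence. Of its 50 genes in the table, 4 had a higher mean than Usp17lb (Gm5662, Gm2016, Gm2075 and Tcstv3, with means of 544.2 to 773.3 FPKM), and the median was 75.4 FPKM. Of 48 tested genes 0 passed in any comparison (limma). The list holds gene families, and Zscan4d and Tdpoz2 also had fractions of reads, so the 48 genes are not separate observations. In B against A, 44 coefficients (91.7%) were above 0, against 55.1% of all tested genes, with a median of 0.90 against 0.07. There 14 (29.2%), among them Usp26 of the deubiquitinase list, were higher at an unadjusted p below 0.05 (background 2.77%). In C against B, 44 were below 0 and 8.33% were above 0, against 49.9% above 0 over all tested genes. The median there was -0.61 against 0, and 6 (12.5%) were lower at that threshold (background 2.22%). The Usp17l members had the same sign in both comparisons and medians of 0.61 and -0.55, with 0 of 5 past that threshold. In C against A the medians were 0.14 for the list and -0.13 for the members. Duxf3, which encodes the factor Dux, was at 0.03 to 0.62 FPKM on at most 2 reads in any library, under the floor of 3 reads.

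Of the families of this stage, Zscan4 and Tdpoz were compared by their sums. The 6 Zscan4 genes, linked to telomeres, summed to 223.4 and 153.4 FPKM in A, 328.7 and 922.7 FPKM in B, and 470.4 and 236.9 FPKM in C. The 5 Tdpoz genes summed to 286.4 and 267.2 FPKM in A, 284.4 and 560.4 FPKM in B, and 348.9 and 271.4 FPKM in C. All 3 families had B2 highest and A2 lowest, an order whose share among single tested genes was not counted. Other genes of the 2-cell-stage list differed among themselves. Gm5662, Gm2016, Gm2075 and Gm2022 were highest in B2, but Tcstv3 was highest in B1 (759.9 FPKM) and Gm2056 in C1 (931.5 FPKM). The highest library was 2.30 times the lowest for Usp17l, 2.10 times for Tdpoz and 6.02 times for Zscan4, and these differences between families were not tested. For Zscan4 both libraries of C lay above both of A, as for 16.5% of single tested genes, whereas for Usp17l and Tdpoz these pairs overlapped.

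**Figure D5:**
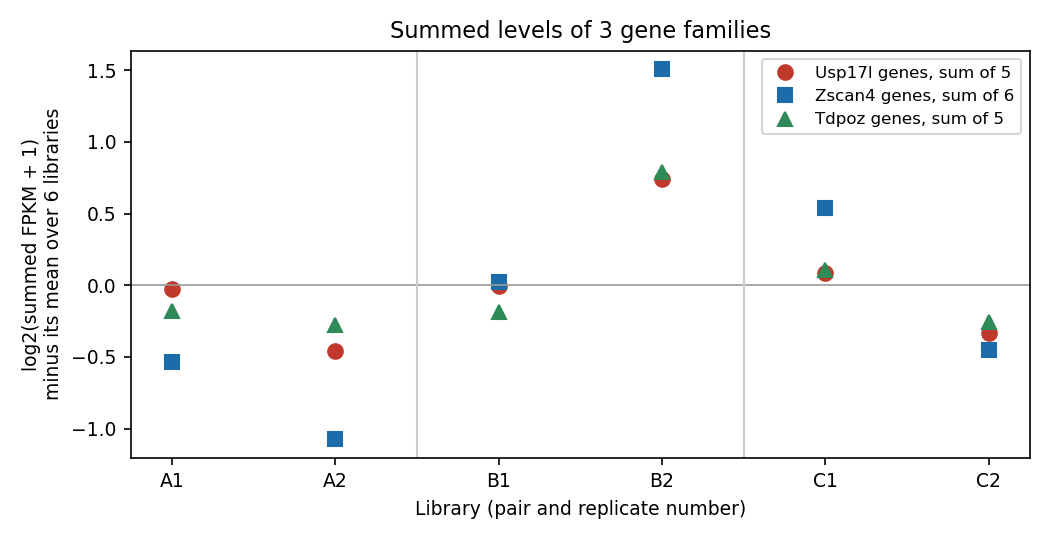
Log2 of the summed FPKM + 1 of the Usp17l, Zscan4 and Tdpoz genes in each library, relative to the mean of that family over the 6 libraries. B2 is highest for all 3 families (0.74 for Usp17l, 1.51 for Zscan4 and 0.79 for Tdpoz) and A2 is lowest.

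Genes with the pattern most like that of the family sum over the 6 libraries were sought among the 7081 genes whose mean reached 5 FPKM. The 5 with the highest Pearson correlation were Rexo4 (r = 0.998), Gm13694 (0.995), Gm13696 (0.993), Gm13697 (0.993) and D7Ertd443e (0.991). Rexo4, an RNA exonuclease, measured 9.15 and 7.82 FPKM in A, 9.18 and 12.2 FPKM in B, and 9.39 and 8.28 FPKM in C. Its order over the 6 libraries was the same as that of the family sum, within a range of 1.56 times. Gm13694 and Gm13696 had the same value in 4 of 6 libraries, and both ranged from 8.75 to 15.9 FPKM. D7Ertd443e, also on chromosome 7, ranged from 10.2 to 23.0 FPKM, 2.26 times, close to the 2.30 times of the family. These 5 are the extreme of many genes, of which 120 (1.69%) had r above 0.9 and the median r was 0.10, and 6 points that share libraries and depth give no more than a description.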

How the data were processed

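FPKM values (fragments scaled to gene length and library total) were made by the authors and deposited for 53023 genes in 6 libraries, with a gene length as another column of the deposited table. Per the submitters' processing notes the build is mm10 and the programs include Trimmomatic, Trim Galore, cutadapt, STAR and featureCounts. The aligner's version, the annotation and the strand setting were not given in the sources used here. Per the labels' protocols, cDNA was amplified with 13 PCR cycles. The table has 0 spike-in rows.

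FPKM times length gave reads up to 1 factor per library, set so that the most frequent value is 1 read. All values were then multiples of 0.01 read (tolerance 0.0002 read, wider for values above 100 reads in proportion), and 55.6% to 57.9% of values above 0 were whole (tolerance 0.001 read), so shared reads had been counted as fractions. Intervals and the floor of 3 reads cover counting error only. They treat fractions of shared reads as Poisson counts, which is approximate. For 2 kb of gene, 1 read equals 0.321 to 0.551 FPKM.

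The 13443 genes whose mean reached 1 FPKM were tested as log2(FPKM + 1), a scale that understates changes of low genes. limma 3.58.1 (R 4.3.3) fitted the 3 pair means together, using a variance trend, with p adjusted over all genes (Benjamini-Hochberg, threshold 0.05), and checked on simulated data. The labels do not say that pools of a pair came from separate matings, so a p-value reflects only how these pools vary. The family sum was not tested. Alternatives were another pseudocount (0.1), quantile normalization, median scaling, no filter or one at 5 FPKM, a fit without the trend, the 2 pairs alone, a replicate block, limma-voom on recovered reads and leaving out libraries.

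The members and the gene lists were chosen with earlier results of these data known. All members are named, and from each list at most 4 genes with the lowest unadjusted p, besides genes named as background, for their level or as marker genes, chosen after their values were seen. Genes like the family were the 5 with the highest r. Alignments used Biopython 1.88, with GENCODE M21 transcripts (whose gene identifiers match the members) and RefSeq promoters.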

Additional observations from a re-analysis of the deposited data

How the results depend on the processing

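No member passed in any comparison under any of the settings run (240 values over 15 results, smallest adjusted p 0.863), and the number of genes passing stayed at 0 except with a pseudocount of 0.1, where 1 gene, Igkv13-87, passed in C against B. The direction of Usp17lb kept its sign in B against A and in C against B under all settings. In C against A, Usp17lc turned to -0.028 with median scaling and to -0.035 with quantile normalization. Leaving out both A2 and C2, a setting chosen after seeing the data, turned Usp17ld in C against B (0.117), Usp17lc (-0.166) and Usp17ld (0.071) in C against A, and Usp17la (-0.041), Usp17ld (-0.046) and Usp17le (-0.153) in B against A. The family sum in C against A moved from 0.117 to -0.198 without Usp17lb, and leaving out 1 library gave -0.1 (without A2) to 0.335 there, also below 0 without C1 (-0.09), 0.235 to 0.98 in B against A and -0.863 to -0.118 in C against B. The cause was not tested. Leaving out 1 library at a time gave log2 fold changes in C against A of -1.087 to 0.262 (Usp17la), -0.057 to 0.329 (Usp17lb), -0.527 to 0.575 (Usp17lc), -0.873 to 0.387 (Usp17ld) and -0.701 to 0.446 (Usp17le). In B against A the ranges were -0.119 to 1.385 (Usp17la), 0.25 to 0.975 (Usp17lb), 0.149 to 1.251 (Usp17lc), -0.216 to 0.756 (Usp17ld) and -0.153 to 0.994 (Usp17le), and in C against B -1.798 to -0.293 (Usp17la), -0.839 to -0.114 (Usp17lb), -1.154 to -0.198 (Usp17lc), -1.143 to 0.117 (Usp17ld) and -1.031 to -0.064 (Usp17le). In each comparison the range was thus widest for Usp17la and narrowest for Usp17lb. A pair left with 1 library was assumed to vary like the others. With the replicate number as a block 0 genes passed in each comparison (smallest adjusted p 0.239, 0.401 and 0.6 in C against B, C against A and B against A). The numbers are not stated to mark a shared batch, and the correlation of deviations between pairs was 0.098 (A and B), 0.203 (A and C) and 0.005 (B and C). The 4 lower members rest on 4.6 to 45.7 reads per library, which limits what can be seen of them.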
